A study of Homo sapiens with 6 samples.

Results

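The genes described here are 9 lineage genes that are known from HEK293 cells: the nephron transcription regulators PAX2, PAX8, LHX1, EYA1 and SALL1, and the intermediate filament genes NEFL, NEFM, INA and VIM. They were chosen by name, with no threshold on a measured value, and each was found at 1 of the 117001 loci of the deposited comparison table. They are 9 of the 24258 genes to which the annotated transcripts of the 6 libraries were assigned.

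HEK293 is a human line made from embryonic kidney cells with DNA of adenovirus 5. All cells were grown in DMEM with serum and antibiotics at 37°C and 5% CO2. For heat shock, cells taken at passage were put in a tube and kept for 30 minutes in water at 45°C, and control cells were left untreated. Total RNA was extracted with Trizol, depleted of ribosomal RNA with ribominus and made into TruSeq libraries, with 3 control and 3 heat shock libraries. The labels give the time in the bath and no recovery time, while the study describes its sequencing as made 30 minutes after heat shock. Nothing in the labels says whether the libraries of a group came from separate cultures, so a p-value here measures only the spread between these samples. The line is a transformed culture and carries no kidney tissue structure, which limits it as a model of kidney or nerve.

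PAX2 and PAX8 are paired-box factors, LHX1 is a LIM homeobox factor, EYA1 is a coactivator and phosphatase that works with DNA-binding partners, and SALL1 is a zinc-finger factor. In the embryo all of them act in the nephric duct, the ureteric bud or the cap mesenchyme, the progenitor tissue from which nephrons form, and in the adult kidney most are low. NEFL, NEFM and INA encode the light and medium neurofilament subunits and alpha-internexin, which co-assemble into the filaments of axons. VIM encodes vimentin, the filament of mesenchymal cells and of most cells in culture. HEK293 is known for carrying neurofilament proteins beside its kidney origin, and an origin from a neuronal or adrenal cell of the explant has been proposed for it.

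Levels are FPKM, fragments per length of transcript and per size of library. They were summed over the annotated transcripts of a gene and those that the assembly of a library placed at that gene alone. The libraries stood apart in 2 ways that touch the results below. First, the 989 genes above 10 FPKM in all 6 libraries sat at a common level that differed between libraries, with a factor of 0.937, 0.434 and 0.956 in control replicates 1, 2 and 3 and of 2.13, 2.31 and 0.487 in heat shock replicates 1, 2 and 3. Dividing a library by this common factor is called scaling in what follows. Second, transcripts of a single exon without a strand numbered 141632, 194489 and 45600 in the controls and 17304, 30334 and 151889 in the heat shock libraries. Control replicates 1 and 2 and heat shock replicate 3 held the most on this measure, so the split crosses the groups. Heat shock replicate 3 was nearest to control replicate 2 in its common factor and nearest to control replicate 1 in its number of such transcripts. Whether it was labelled wrongly or handled differently was not tested. The files give no read totals, and depth relative to the shallowest library, read from coverage per FPKM, ran from 1 to 2.03.

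The transcripts without a strand are shown first at the 2 PAX genes. They were no part of the FPKM of these genes, since all transcripts summed there carried the strand of the gene. PAX2 (hg19 chromosome 10, 102505468 to 102589698, plus strand) has 10 or 11 exons, and PAX8 (chromosome 2, 113973574 to 114036498, minus strand) has 9 to 12. In both genes, intronic stretches lay under such transcripts in control replicates 1 and 2 and heat shock replicate 3 and in none of the other libraries, 27 stretches in PAX2 and 1 in PAX8. The middle 120 bases of the longest stretch of each gene, read from the GRCh37 genome on the plus strand with every CG in capitals, are shown because neither holds any annotated exon.
PAX2, chr10:102512997-102513116: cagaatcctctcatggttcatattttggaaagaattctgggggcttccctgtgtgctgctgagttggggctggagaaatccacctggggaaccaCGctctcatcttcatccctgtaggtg
PAX8, chr2:114010245-114010364: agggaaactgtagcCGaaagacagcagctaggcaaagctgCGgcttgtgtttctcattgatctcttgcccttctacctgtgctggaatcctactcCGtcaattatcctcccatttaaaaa
The PAX2 bases are 51.7% G or C with 1 CG, and the PAX8 bases are 46.7% G or C with 3 CG. The stretches around them are 926 bp (102512594 to 102513519) and 528 bp (114010041 to 114010568) long.

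In untreated cells VIM was far above the other members. VIM (chromosome 10, 17270258 to 17279751, plus strand) was at 243, 85.3 and 198 FPKM in control replicates 1, 2 and 3, a mean of 175.7 ± 81.5 (SD, n = 3). That put it between the 99.2th and 99.3th percentile of the genes above 0 in those libraries. NEFL followed at 4.78, 2.48 and 5.21 FPKM, a mean of 4.16 ± 1.47 (SD, n = 3), so that the mean of VIM was 42.3 times that of NEFL. Between these genes the control ranges did not overlap, and this was the only pair of neighbours in the order of the 9 levels of which that was true.

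The other neuronal filaments lay just under NEFL. NEFM was at 3.51, 1.44 and 4.03 FPKM, a mean of 2.99 ± 1.37 (SD, n = 3). INA was at 3.63, 2.35 and 2.70 FPKM, a mean of 2.89 ± 0.658 (SD, n = 3). NEFL was above NEFM in each of the 6 libraries, by 1.29 to 1.72 times. NEFM was above INA in 2 of 6 libraries, and the order of these genes was not resolved. NEFL and NEFM are neighbours on chromosome 8 (24808469 to 24814383, minus strand, and 24771274 to 24776606, plus strand), and INA is on chromosome 10 (105036920 to 105050108, plus strand).

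By mean control level the nephron regulators were the lowest of the 9, although PAX2 was above NEFL, NEFM and INA in control replicate 2. PAX2 was at 1.90, 2.69 and 0.664 FPKM in the controls, a mean of 1.75 ± 1.02 (SD, n = 3). SALL1 (chromosome 16, 51169886 to 51185183, minus strand) was at 2.20, 0.981 and 1.72 FPKM, a mean of 1.63 ± 0.613 (SD, n = 3). Neither stood above the other beyond its spread. LHX1 (chromosome 17, 35294772 to 35301915, plus strand) was at 1.69, 0.727 and 0.234 FPKM, a mean of 0.882 ± 0.739 (SD, n = 3). EYA1 (chromosome 8, 72109668 to 72274467, minus strand) was at 0.476, 1.22 and 0.487 FPKM, a mean of 0.727 ± 0.425 (SD, n = 3). PAX8 closed the order at 0.952, 0.400 and 0.662 FPKM, a mean of 0.671 ± 0.276 (SD, n = 3). Within this group the ranges of neighbours overlapped throughout, although SALL1 was above LHX1 in 6 of 6 libraries. A level of this kind is a mean over the culture, in which fewer cells of a type and less RNA per cell cannot be told apart.

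**Figure D1:**
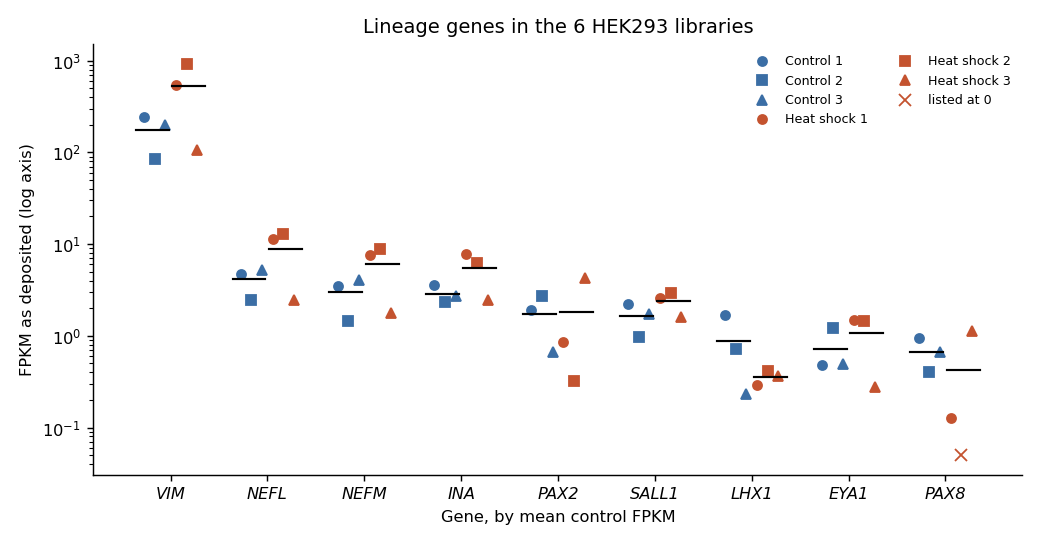
FPKM as deposited (log axis) of the 9 lineage genes, ordered by mean control level, with a point for each of the 3 control and 3 heat shock libraries and a bar at each group mean. VIM lies apart at 85.3 to 929 FPKM, the other filament genes lie between 1.44 and 13.0 FPKM, and PAX8 is listed at 0 in heat shock replicate 2, drawn at the foot of the axis.

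What the sums rest on differed between the groups of genes. Cufflinks assembled transcripts of its own beside the annotated ones, and for PAX2 the annotated isoforms gave 0% to 24.0% of the gene's FPKM in any library. Of the 5 annotated PAX2 isoforms only NM_003989 was above 0, in 3 libraries and at no more than 0.427 FPKM, and 11 assembled transcripts over the 6 libraries made up the rest. In heat shock replicate 3 the PAX2 value was the sum of 4 partial transcripts, 3 of them beginning at the annotated start of the gene and ending within the first 3 introns. Its single-exon transcript of 2114 nucleotides gave 1.52 FPKM and ran on from the first exon into intron. Length-weighted FPKM, in which each transcript counts by its length over that of the longest annotated one, lowered that library from 4.26 to 1.96.

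PAX8 had even thinner support. Of its 4 annotated isoforms only NM_013992, the shortest with 9 exons, was above 0, in 3 libraries, and the summed coverage of the gene was 0 to 1.88 reads per base. The bounds that Cufflinks gave for the 0.127 FPKM of PAX8 in heat shock replicate 1, all on NM_013992, were 0.0134 and 0.241. LHX1 had a summed coverage of 0.243 to 3.22 and EYA1 of 0.412 to 2.25. Of the 4 EYA1 isoforms, NM_000503 was above 0 in 5 libraries and NM_172058 in 1. At such coverage a difference of a few reads moves the level, and which isoform of these genes was present was not detectable at this depth.

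**Figure D2:**
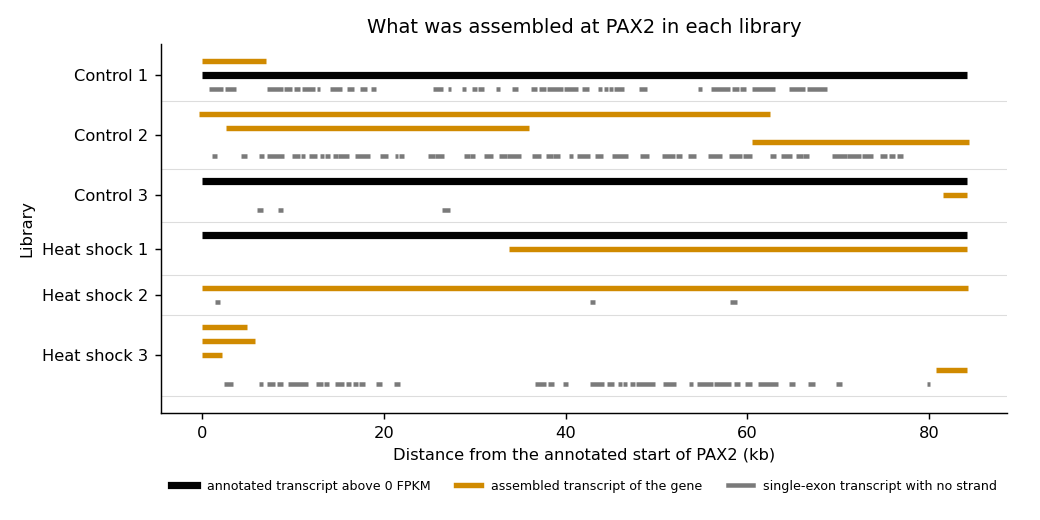
Transcripts at PAX2 in each of the 6 libraries, drawn by distance from the annotated start of the gene in kb, with lines spanning the bounds of transcripts on the gene's strand above 0 FPKM and short blocks for single-exon transcripts without a strand. Blocks crowd the gene in control replicates 1 and 2 and heat shock replicate 3, which hold 35, 46 and 33 of them, against 3, 0 and 3 in control replicate 3 and heat shock replicates 1 and 2.

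The filament genes had their annotated forms in nearly every library. NEFL (NM_006158, 4 exons) and INA (NM_032727, 3 exons) were above 0 in 6 of 6 libraries in the annotated form, which gave at least 44.3% of the NEFL value and at least 22.1% of the INA value. NEFM had both its annotated forms, NM_005382 in 6 libraries and the shorter NM_001105541 in 5. VIM was on its only annotated transcript, NM_003380, in 4 libraries. In control replicate 3 that transcript was listed at 0 and the 198 FPKM sat on an assembled transcript of 1973 nucleotides that begins at 17271175, inside the gene. In heat shock replicate 2 the annotated form had 124 FPKM and an assembled transcript of 1224 nucleotides from the 3′ part of the gene had 805 FPKM. The length-weighted VIM level of that library was 585 FPKM instead of 929.

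The comparison of interest was heat shock against control, and none of the 9 genes separated the groups. VIM reached 541, 929 and 107 FPKM in replicates 1, 2 and 3 of heat shock, a mean of 525 ± 411 (SD, n = 3). Replicates 1 and 2 were above every control and replicate 3 was below control replicates 1 and 3. NEFL was at 11.3, 13.0 and 2.45 FPKM after heat shock, a mean of 8.90 ± 5.65 (SD, n = 3). NEFM was at 7.57, 8.92 and 1.77 FPKM, a mean of 6.09 ± 3.80 (SD, n = 3). INA was at 7.80, 6.24 and 2.43 FPKM, a mean of 5.49 ± 2.76 (SD, n = 3). All 4 filament genes thus had the same layout, with heat shock replicates 1 and 2 above the controls and replicate 3 among them or, for NEFL, just under them.

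The nephron regulators did not all share this layout. PAX2 was at 0.856, 0.320 and 4.26 FPKM after heat shock, a mean of 1.81 ± 2.14 (SD, n = 3), with the highest and the lowest of its 6 values both in this group. SALL1 was at 2.59, 2.92 and 1.62 FPKM, a mean of 2.38 ± 0.678 (SD, n = 3), laid out as the filament genes were. LHX1 was at 0.290, 0.409 and 0.364 FPKM, a mean of 0.354 ± 0.060 (SD, n = 3), inside the range of its controls. EYA1 was at 1.48, 1.46 and 0.276 FPKM, a mean of 1.07 ± 0.689 (SD, n = 3), also with replicates 1 and 2 above the controls and replicate 3 under them. PAX8 was at 0.127, 0 and 1.14 FPKM, a mean of 0.422 ± 0.625 (SD, n = 3), and again both ends of its 6 values were heat shock libraries, with replicate 3 above the controls and replicates 1 and 2 below them. An exact two-sided permutation test of each gene gave p = 0.3 to 0.9, where 3 against 3 cannot go below 0.1.

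The limma fit on log2(FPKM + 1) took the 13159 genes that averaged 1 FPKM or more, and 6 members were among them: the 4 filament genes, SALL1 and PAX2. LHX1, EYA1 and PAX8 averaged less. A call needed a Benjamini-Hochberg adjusted p under 0.05 and a change of over 2-fold, which 3 genes of all those tested reached (0.0228%). None of the 6 members was among them, and none was among the 490 genes with an unadjusted p under 0.05 (3.72%). The groups overlapped for all 9 members, while 5.97% of the tested genes had groups that did not overlap.

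The estimates, on the log2(FPKM + 1) scale, were 1.23 for VIM (95% interval -0.95 to 3.41), 0.75 for NEFL (-0.66 to 2.16), 0.70 for NEFM (-0.59 to 1.99) and 0.64 for INA (-0.50 to 1.78). The limma adjusted p was 0.709 for each of these. SALL1 had 0.37 (-0.60 to 1.33, limma adjusted p = 0.709) and PAX2 had -0.16 (-1.40 to 1.09, limma adjusted p = 0.884). The intervals hold rises of more than 2-fold as well as falls, so these data do not show that the levels stayed the same. The median over all tested genes was 0.45 on the same scale, which lies inside each of these intervals. Without heat shock replicate 3 the estimates were 2.14 for VIM, 1.39 for NEFL, 1.27 for NEFM, 1.05 for INA, 0.54 for SALL1 and -0.74 for PAX2. The lowest limma adjusted p among them was then 0.0776, with 7 genes called over all those tested and a median of 0.83.

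Once scaled, NEFL and NEFM were nearly level across the 6 libraries. NEFL was at 5.10, 5.70 and 5.46 in the controls against 5.30, 5.60 and 5.03 after heat shock, in FPKM over the common factor. Its coefficient of variation was 5.05% against a median of 50.4% for the 6345 genes within 2-fold of its level, of which 0.347% varied less. NEFM was at 3.74, 3.31 and 4.22 in the controls against 3.55, 3.86 and 3.64 after heat shock. Its coefficient of variation of 8.23% was undercut by 1.34% of the genes within 2-fold of its level. Both genes were measured under 10 FPKM in at least 1 library and so had no part in setting the common factor.

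INA varied more. Scaled, it was at 3.87, 5.41 and 2.83 in the controls against 3.66, 2.70 and 4.99 after heat shock, a coefficient of variation of 28.3% against a median of 57.2% for genes within 2-fold of its level. With length weighting as well it was 15.7%. Scaled VIM was at 260, 196 and 207 in the controls against 254, 402 and 219 after heat shock. Unlike the other filament genes it varied more than most genes within 2-fold of its level. Its coefficient of variation was 29.5% against a median of 10.8% for those 153 genes, and with length weighting as well 12.8% against 8.90%. The high VIM value was that of heat shock replicate 2, and with length-weighted FPKM, scaled by a factor found in the same way, the VIM levels were 254, 195 and 193 in the controls against 252, 251 and 216 after heat shock.

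**Figure D3:**
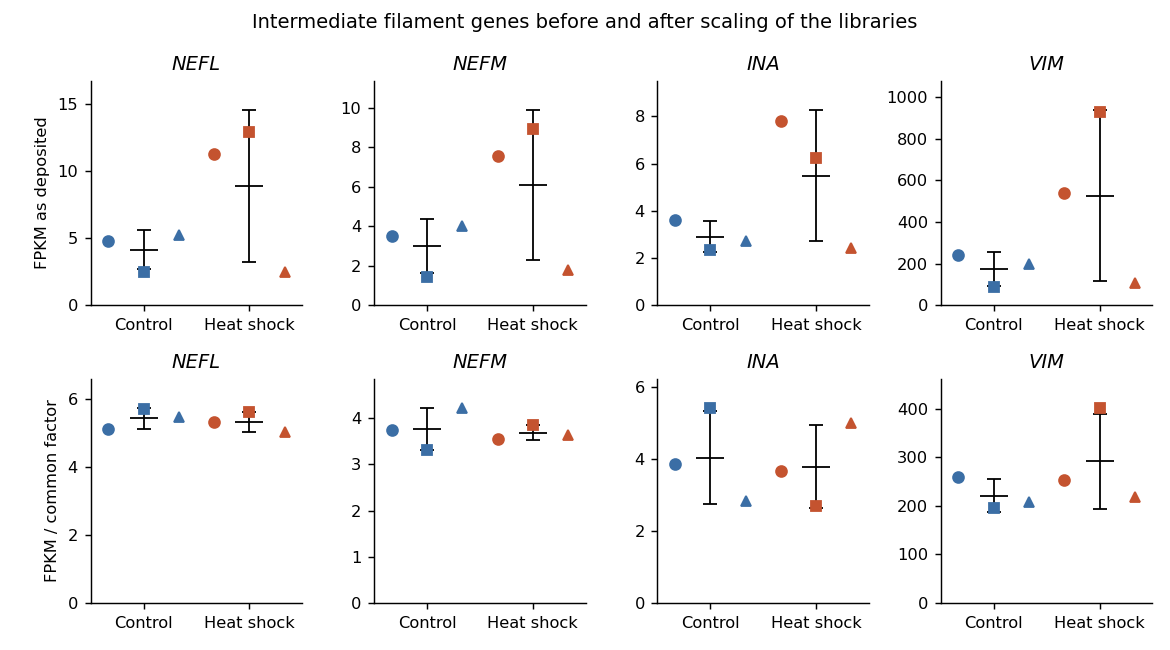
Levels of the 4 filament genes in the 6 libraries, as deposited (upper row, FPKM) and after scaling by the common factor (lower row), with a point for each control and heat shock library and the mean ± SD of each group (n = 3) in black. The spread of NEFL from 2.45 to 13.0 FPKM shrank to 5.03 to 5.70 after scaling, and VIM kept 1 high value, 402, in heat shock replicate 2.

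On the scaled values the limma estimates were 0.36 for VIM (95% interval -0.25 to 0.97), -0.025 for NEFL (-0.48 to 0.43), -0.019 for NEFM (-0.55 to 0.51) and -0.071 for INA (-0.85 to 0.71). The limma adjusted p-values of these genes were 0.908 to 0.984. The interval for NEFL leaves out a change of 2-fold in either direction on this scale. SALL1 was at -0.16 (-1.04 to 0.71) and PAX2 at -0.42 (-2.84 to 2.01), the widest interval of the 6. With scaling, limma called 0 of the 13159 genes, with 423 at an unadjusted p under 0.05 (3.21%) and a median of -0.21 over all of them, and the groups of 7.31% of genes did not overlap. For NEFL, NEFM, INA and SALL1 the sign of the estimate therefore turned with the scaling. Scaling and length weighting together gave VIM 0.17 (-0.16 to 0.50), NEFL -0.035 (-0.34 to 0.27) and NEFM 0.034 (-0.30 to 0.37).

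**Figure D4:**
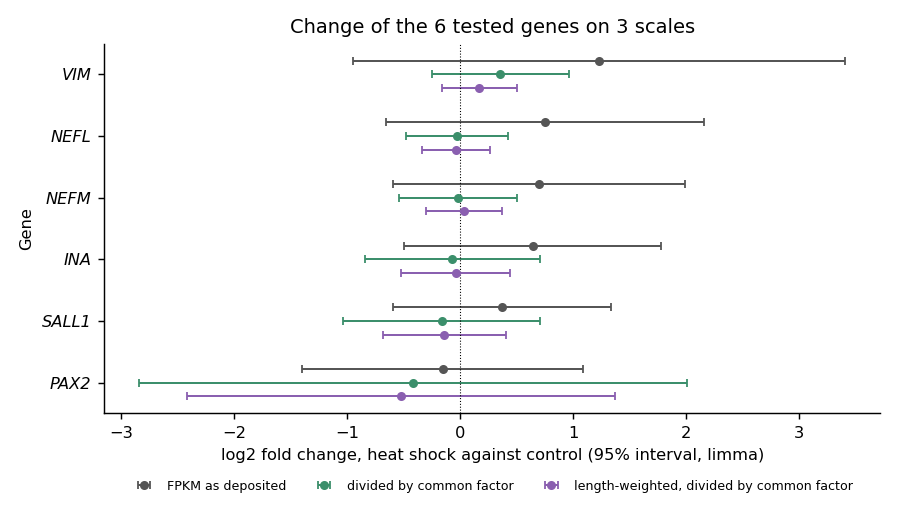
Estimated log2 fold change, heat shock against control, of the 6 tested members with its 95% interval from limma, on 3 scales: FPKM as deposited, scaled by the common factor, and length-weighted and scaled. Every interval crosses 0, and those of NEFL and NEFM narrow from -0.66 to 2.16 and -0.59 to 1.99 as deposited to -0.34 to 0.27 and -0.30 to 0.37 on the third scale.

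A ratio within a library does not depend on how libraries are scaled. The ratio of NEFL to VIM was 0.0196, 0.0290 and 0.0263 in the controls against 0.0209, 0.0140 and 0.0230 after heat shock. The log2 ratio differed by -0.39 (exact two-sided permutation p = 0.3, adjusted over 7 genes 0.583). For NEFM the difference was -0.38, for INA -0.45, for SALL1 -0.66, for EYA1 -0.87, for PAX2 -1.75 and for LHX1 -2.14, with exact permutation p = 0.2 to 0.6 and adjusted p up to 0.6. Leaving out 1 library at a time moved the PAX2 difference between -3.67 and -0.24, that of SALL1 between -1.31 and -0.18, that of LHX1 between -3.08 and -1.60, and those of NEFL and NEFM between -0.55 and -0.17 and between -0.56 and -0.16. PAX8 had no such ratio because of its 0. The low ratios of heat shock replicate 2 carry the VIM fragment described above in the denominator, and with length-weighted FPKM the NEFL to VIM ratio of that library was 0.0227 instead of 0.0140. The differences of the log2 ratio were then -0.21 for NEFL, -0.13 for NEFM, -0.23 for INA, -0.42 for SALL1, -0.38 for EYA1, -1.64 for PAX2 and -1.47 for LHX1, with exact permutation p = 0.2 to 0.7. The ratio of NEFL to NEFM stayed within 1.29 and 1.72 in the 6 libraries, with exact permutation p = 1 between groups.

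Transcripts without a strand moved with the levels of some members. Within the bounds of PAX2 there were 35, 46 and 3 of them in the controls against 0, 3 and 33 after heat shock, and they covered 41.2%, 50.1% and 2.54% of its 84231 bp in the controls against 0%, 2.06% and 36.5% after heat shock. PAX2 was at 1.90 to 4.26 FPKM in the 3 libraries with the most such transcripts and at 0.320 to 0.856 in the other 3. Such transcripts were not in the PAX2 sum, and whether they were linked to its level was not tested. PAX8 held 10, 11 and 0 in the controls against 0, 0 and 7 after heat shock, and its level did not split that way as deposited but did once scaled, at 0.921 to 2.34 against 0 to 0.693. LHX1 and INA likewise split only once scaled, with the higher levels in the libraries with the most such transcripts, as did SALL1, though not with length weighting as well. The common factor was itself lower in those libraries, at 0.434 to 0.937 against 0.956 to 2.31 in the others. Dividing by it raises them against the others, so a split seen only once scaled cannot be told apart from the scaling. The share of all tested genes that split so once scaled was not counted. PAX8-AS1, the antisense RNA gene that overlaps PAX8 on the opposite strand, was at 1.56, 2.32 and 1.02 FPKM in the controls against 0.363, 0.428 and 2.04 after heat shock, and split that way on both scales. The library kit is not stated to keep strand, so reads of PAX8 and of its antisense partner may not be told apart where their exons overlap.

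EYA1 was at the other end. The longest member at 164800 bp, it held 1 such transcript in all 6 libraries together, in heat shock replicate 1. PAX2 and PAX8 are 50.3% and 49.2% G or C over their length and EYA1 is 37.5%, at the 91.2th, 89.3th and 20.2th percentile of the 6207 genes of at least 50 kb. Among those genes the 1242 richest in G and C had a median cover of 25.9%, 29.7% and 3.26% in the controls against 0%, 0.530% and 26.6% after heat shock, while the 1242 poorest had a median of 0% in each library. PAX2 was above that median in control replicates 1 and 2 and heat shock replicates 2 and 3. LHX1, the richest member at 57.2% G or C, was covered to 15.5% in control replicate 1 and 7.91% in heat shock replicate 3. SALL1 was covered to 5.24% and INA to 5.48% in control replicate 2. LHX1, SALL1 and INA were each covered to 0% in the other libraries. NEFL, NEFM and VIM, at 44.7%, 48.5% and 46.2% G or C, held no such transcript in any library. As deposited, NEFL and NEFM were lower in the libraries with the most such transcripts (NEFL 2.45 to 4.78 FPKM against 5.21 to 13.0), as were 29.3% of the tested genes, while 9.62% were higher there, as PAX2 was. Scaled, the sets overlapped for NEFL (5.03 to 5.70 against 5.30 to 5.60) and for NEFM (3.31 to 3.74 against 3.55 to 4.22), and PAX2 remained higher.

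Compared within libraries alike in this measure, the members did not point one way. Among control replicates 1 and 2 and heat shock replicate 3, VIM as deposited had a difference of -0.62, NEFL of -0.42, NEFM of -0.32, INA of -0.22 and PAX2 of 0.68, heat shock against control in log2 of the mean FPKM + 1. Among control replicate 3 and heat shock replicates 1 and 2, VIM had 1.88, NEFL 1.08, NEFM 0.88, INA 1.11 and PAX2 -0.067. Each set leaves a group with 1 library, so these are values with no test. As deposited, the filament genes were lower after heat shock in the first set and higher in the second. Scaled, that pattern was lost, with VIM at -0.060, NEFL at -0.087, NEFM at 0.036 and INA at 0.086 in the first set and at 0.66, -0.00052, -0.15 and 0.13 in the second, while PAX2 stayed at 0.93 and -0.42.

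**Figure D5:**
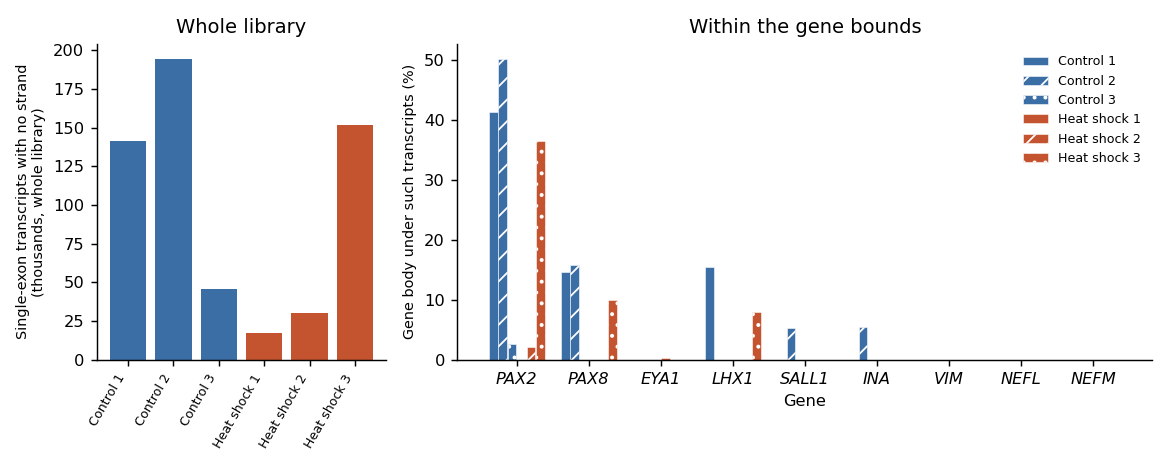
Left, single-exon transcripts without a strand in each whole library as bars from 0; right, the percent of each gene's bounds under such transcripts, with a bar for each library. The high bars are control replicates 1 and 2 and heat shock replicate 3 (141632, 194489 and 151889), and in the same libraries 36.5% to 50.1% of PAX2 was covered against 0% of EYA1.

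Other genes of the same programmes gave no call in either direction, beside the 0.0228% called among all genes. Of 32 further kidney development factors 25 were tested, with a median log2 change of -0.091 as deposited and -0.50 with scaling. CITED1, a coactivator of the cap mesenchyme, was the highest of them in the controls at 21.4, 10.1 and 25.9 FPKM, and was at 54.1, 52.1 and 9.92 after heat shock. It had the layout of the filament genes, with heat shock replicate 3 just under the controls. HOXD11, a homeobox gene of the metanephros, was at 0, 2.12 and 12.4 FPKM and then at 0, 0 and 2.20, with no separation of groups.

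Genes of the differentiated nephron were present at low levels. Of 24 such genes 14 were tested, with a median log2 change of -0.62 as deposited and -0.88 with scaling, and 2 of them, PTH1R and CDH16, had an unadjusted p under 0.05, both lower after heat shock. PTH1R, the receptor of parathyroid hormone, was at 4.47, 7.61 and 4.87 FPKM in the controls against 0.294, 0.692 and 2.70 after heat shock, and its groups did not overlap, as was true of 5.97% of all tested genes. Its limma adjusted p was 0.709. Scaled, its groups overlapped, since heat shock replicate 3 came to lie among the controls, and the unadjusted limma p rose from 0.00554 to 0.0529. CDH16, a kidney cadherin, was at 3.13, 4.18 and 3.30 FPKM and then at 0, 0.251 and 3.91, with heat shock replicate 3 among the controls. PODXL, the sialomucin of podocytes, was at 6.92, 1.39 and 3.65 FPKM and then at 4.50, 4.47 and 1.84. CDH2, the cadherin of the proximal tubule and of neural tissue, was at 4.43, 3.18 and 3.65 FPKM and then at 15.8, 17.6 and 1.91.

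Neuronal genes other than the members were led by UCHL1, the ubiquitin hydrolase of neurons, at 36.7, 15.3 and 29.2 FPKM in the controls against 64.1, 74.2 and 17.2 after heat shock. CRMP1, an axon guidance protein, was at 5.42, 3.23 and 2.92 FPKM and then at 14.1, 9.22 and 3.74. Of 26 such genes 15 were tested, with a median log2 change of 0.33 as deposited and -0.20 with scaling. NEFH, the heavy neurofilament subunit, was at 6.31, 2.26 and 2.67 FPKM in the controls against at 0.0747, 0.282 and 3.48 after heat shock. NEFH thus lacked the layout of NEFL and NEFM, and was lowest in the heat shock libraries where those were highest. ENO2, the neuronal enolase, was listed at 0 in control replicate 1 and at 3.22 and 5.06 FPKM in the others, and was at 13.5, 21.3 and 2.46 after heat shock. NEFH and ENO2 were the genes of this list with an unadjusted p under 0.05, and their limma adjusted p-values were 0.709.

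In a list of 18 other genes, of intermediate filaments and of the filament linkers DSP and PLEC, 16 were tested. Their median log2 change was 0.18 as deposited and -0.51 with scaling. KRT18, an epithelial keratin, led at 16.6, 7.86 and 16.0 FPKM in the controls against 33.9, 34.5 and 16.8 after heat shock. It was above every control in each heat shock library as deposited, the only gene of this list of which that was true. GFAP, the glial filament, was below every control in each, at 3.48, 1.74 and 2.27 FPKM and then at 0.381, 0.286 and 1.66, and 5.97% of all tested genes had groups apart in either direction. Scaled, 0 genes of this list were above every control in each heat shock library, so KRT18 no longer was. GFAP was then no longer below, since heat shock replicate 3 came to lie among the controls, while 1 other gene of the list was. Scaled groups were apart for 7.31% of all tested genes. KRT8, the partner of KRT18, was at 3.27, 2.64 and 16.5 FPKM and then at 15.6, 16.6 and 1.77. KRT10 was at 4.88, 5.66 and 9.62 FPKM and then at 24.9, 27.1 and 2.66. VIM was above each of these in every library.

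Markers of other cell types were low beside the levels of VIM, but some were as high as the other members or higher. The 5 nephron regulators summed to 3.77 to 7.21 FPKM in the controls and 5.12 to 7.66 after heat shock. Of 15 adrenal and chromaffin genes, CYP21A2 and PHOX2A were listed at 0 in all 6 libraries and 6, these included, stayed under 1 FPKM, while DBH, TH and GATA2 led with control means of 7.06, 4.21 and 2.54 FPKM. The 10 fibroblast genes summed to 5.47 to 9.51 FPKM in the controls and 4.80 to 8.78 after heat shock. The 10 epithelial genes summed to 10.1 to 11.7 and 9.13 to 10.5, and the 9 blood cell genes to 7.20 to 12.8 and 6.45 to 14.7. The 8 endothelial genes summed to 5.60 to 10.5 FPKM in the controls and 1.36 to 10.1 after heat shock, with the lowest sums in heat shock replicates 1 and 2. No gene of these last 4 lists was at 0 in all libraries. Of them, 6 of the 10 fibroblast, 3 of the 10 epithelial, 4 of the 9 blood cell and 2 of the 8 endothelial genes stayed under 1 FPKM in every library. The genes with ranges given next, PTPRC and CD3E apart, are among the 3 highest of their list by control mean, so they do not stand for the rest. Among the fibroblast genes COL1A1 ran from 3.23 to 4.16 FPKM over the 6 libraries and THY1 from 0.188 to 1.46, while PDGFRB was at 0.703, 2.17 and 4.15 in the controls against 0.111, 0.195 and 0.814 after heat shock, with an unadjusted limma p of 0.0465 (adjusted 0.709). Among the epithelial genes CDH1 ran from 0.228 to 4.67, TJP1 from 1.01 to 5.39 and OCLN from 1.13 to 2.46. Among the blood cell genes LYZ ran from 1.23 to 4.15 and CD68 from 1.00 to 3.82, and among the endothelial genes TIE1 ran from 0.0473 to 2.88, VWF from 0.0710 to 2.60 and CDH5 from 0.0210 to 2.81. PTPRC and CD3E, which define leukocytes and T cells, were at no more than 0.344 and 0.329. The part of these markers in the values above was not tested.

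The deposited comparison table carries a pooled FPKM for each group, made by the authors over the libraries. For VIM it was 237 in control and 1242 in heat shock, for NEFL 5.68 and 25.6, for NEFM 3.71 and 17.4, and for INA 3.64 and 14.7. For SALL1 it was 1.67 and 5.76, for EYA1 0.582 and 2.61, for LHX1 0.585 and 0.861, for PAX2 0.602 and 1.30 and for PAX8 0.530 and 0.341. For 7 of the 9 genes, all but PAX2 and PAX8, the pooled heat shock value was above that of every heat shock library, while the pooled control value lay within the range of the control libraries for 6 of 9. The table and the assemblies are therefore on different scales, and levels cannot be set across them.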

How the data were processed

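RNA of 3 control and 3 heat shock HEK293 samples was measured by RNA-seq. Per the submitters' processing notes and the study's methods, FastQC 0.10.1 served for quality control and Trimmomatic 0.3.0 for trimming. TopHat2 was the aligner (hg19), and the authors' deposited FPKM of each transcript come from Cufflinks 2.0.2 run on every library with known hg19 genes. Cuffdiff on the merged assembly gave a table of pooled FPKM, folds, p-values and q-values, of which only the deposited pooled FPKM were used here, as the authors' values. FPKM are not read counts, so no count model was fitted.

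Transcripts carry accessions, and 90.4% of 43536 annotated ones were named through their accession, 2523 through a gene name and 711 through other transcripts of their locus, while 930 kept the accession. FPKM were summed per gene and library. Assembled transcripts were included where Cufflinks grouped them with the transcripts of a single named gene, and left out where it grouped them with several. Genes that averaged 1 FPKM or more were tested on log2(FPKM + 1) with limma 3.58.1 (R 4.3.3, trended prior) over all 6 libraries, with Benjamini-Hochberg adjustment over all 13159 genes. The script was tested on simulated data. Ratios and single genes were tested by exact two-sided permutation. The members and gene lists were chosen with earlier results of these data known. Genes named from a list were those called or, with none called, the 3 with the highest mean control FPKM. A gene that this rule picked among the kidney development factors, and another among the blood cell genes, are not reported here. CDH16, ENO2, GFAP, PTPRC, CD3E and PAX8-AS1 were named outside this rule, after their values were seen. For a member averaging 10 FPKM or more, the 2 genes most correlated with it over the libraries were also named.

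Alternatives were a pseudocount of 0.1, no minimum and a minimum of 10 FPKM, the common factor, median-of-ratios, TPM and quantile scaling, annotated transcripts alone, no trend, a block for the replicate number and leaving out each library. Length-weighted FPKM, a term for control replicates 1 and 2 and heat shock replicate 3 together, and scaling with each library left out were added after seeing the data. Coordinates are those of the files (hg19), and sequence and base content were read from GRCh37. Of 25 chromosomes compared, the files ran past the reference only on chromosome M, which holds no member. No promoter or protein is shown.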

Additional observations from a re-analysis of the deposited data

How the results depend on the processing

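None of the members was called in 157 tests, those of the report included, over 26 alternatives, with limma adjusted p-values from 0.0776 (without heat shock replicate 3) to 1. VIM kept its direction in all 26 alternatives, at 0.10 to 2.81 on the log2 scale. The lowest value came with the common factor and without heat shock replicate 2. The highest came with annotated transcripts alone, where VIM counted as 0 in control replicate 3 because its level there sat on an assembled transcript. The signs of the other members turned. With the common factor the log2 changes were -0.025 for NEFL, -0.019 for NEFM, -0.071 for INA and -0.16 for SALL1, the same with the replicate block added, and with length weighting as well -0.035, -0.041 and -0.14 for NEFL, INA and SALL1. SALL1 was also negative with TPM (-0.090) and annotated transcripts alone (-0.092), and PAX2 turned positive with quantile scaling (0.040) and with the term for transcripts without a strand (0.30). The median of all genes was 0.45 as deposited, -0.21 with the common factor, -0.094 with TPM, 0.35 with annotated transcripts alone, 0.033 with quantile scaling and 0.21 with that term. The cause of the turns was not tested.

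Leaving out each library in turn gave 0.58 to 2.14 for VIM, 0.38 to 1.39 for NEFL, 0.36 to 1.27 for NEFM, 0.37 to 1.05 for INA, 0.18 to 0.54 for SALL1 and -0.74 to 0.26 for PAX2, and with the common factor 0.10 to 0.54, -0.061 to 0.0081, -0.088 to 0.050, -0.25 to 0.12, -0.48 to 0.0020 and -1.40 to 0.15. A change of the ratio to VIM turned for EYA1 (-1.41 to 0.026) and INA (-0.85 to 0.030). Genes called over all tested numbered 3, and 0 with no minimum, the common factor with or without length weighting, or annotated transcripts alone, 1 with median-of-ratios, TPM or no trend, and 0 to 7 without 1 library (0 without any 1 control, and 1, 3 and 7 without heat shock replicates 1, 2 and 3), against 0 in each such fit with the common factor. By limma, 381 to 828 genes had an unadjusted p under 0.05 where 0 were called with annotated transcripts alone or with no minimum.

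Deviations of same-numbered libraries from their group means correlated at 0.028, -0.34 and -0.38 as deposited. Deviations within a group sum to 0, so these values depend on one another and do not settle whether same-numbered samples were paired. A fit with the replicate block called 18 genes, and 0 with the block and the common factor, none of them members. Depth limits LHX1, EYA1 and PAX8 most, with means under 1 FPKM.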

Other observations

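VIM was the only member with a mean of at least 10 FPKM, and the tested genes whose scaled levels followed it most closely over the 6 libraries were ESF1, a nucleolar protein gene, and GLMN, which encodes glomulin, a regulator of cullin ubiquitin ligases (Pearson r of 0.988 and 0.979, as a description over 6 libraries that share their scaling). ESF1 was at 4.21, 3.50 and 3.38 in control replicates 1, 2 and 3 and at 4.16, 5.93 and 3.87 in heat shock replicates 1, 2 and 3, in FPKM over the common factor. Both genes were highest in heat shock replicate 2, the library in which VIM sat mostly on a short 3′ transcript.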
